A study of Homo sapiens with 6 samples.

Results

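Hyaluronan biology was examined through 10 genes: the receptors CD44, HMMR and LYVE1, the synthases HAS1, HAS2 and HAS3, the hyaluronidases HYAL1, HYAL2 and HYAL3, and SRGN, the core protein of a proteoglycan that can bind CD44. They were chosen by symbol, with no measured value in the rule but with earlier results of these data known. All 10 were found among the 19899 genes of the table. RNA-seq was performed in COV434 cells, an established ovarian line that the study treats as a model of SCCOHT, an ovarian small cell carcinoma with hypercalcaemia in which BRG1 is missing. SMARCA4 encodes BRG1, whose ATPase activity drives chromatin remodelling by the SWI/SNF complex. The Control group (n = 3) received the plasmid pCDNA3-neo and the BRG1 group (n = 3) received PBJ5-BRG1. Both groups also received the resistance plasmid pBABE-puro and were selected in 2 to 3 µg/ml puromycin, from 24 hours after transfection, for 3 days. All 6 samples come from transient transfection of a single parental line, so they describe that line only.

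The libraries held between 29699741 and 63613710 estimated counts, with BRG1 sample 3 the shallowest. SMARCA4 had 1439 to 1675 normalised counts (counts divided by a size factor for depth) in Control and 78589 to 108655 in BRG1 samples, plasmid transcripts included. SMARCA2, which encodes the alternative ATPase of the complex, stayed between 3.61 and 35.7 in all 6 samples. Of the granulosa cell markers looked at, FOXL2 was between 0 and 1.21, INHA between 35.7 and 47.3 and AMH between 227 and 455. The replicate numbers were taken to pair the samples, because same-numbered samples deviated together. In 68.3% of the 1764 genes called higher BRG1 sample 1 was the highest and BRG1 sample 3 the lowest of their group.

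Hyaluronan is an unsulphated glycosaminoglycan of the extracellular matrix. It is not built in the Golgi on a protein core like other glycosaminoglycans, but is extruded through the plasma membrane by the HAS enzymes as they join glucuronic acid and N-acetylglucosamine. It is degraded at the cell surface and in lysosomes by hyaluronidases. CD44, the main surface receptor of hyaluronan, connects the matrix to actin through the ezrin, radixin and moesin proteins, and is widely used as a marker of cell adhesion and of cell state in epithelia and tumours. Ovarian follicles are themselves rich in hyaluronan, which forms the matrix of the expanding cumulus.

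Of the 10 genes, CD44 and HAS3 were higher in BRG1 than in Control samples, no gene was called lower (0 at an unadjusted p under 0.05, by DESeq2 and by edgeR), and 2 genes were too low to test. With the replicate number as a block HMMR was called lower as well, by DESeq2 and by edgeR. CD44 moved from a level near that of weakly expressed genes to among the abundant transcripts, whereas HAS3 changed by less than 2-fold. The other synthases and the 3 hyaluronidases had intervals that spanned no change. Calls were made at a DESeq2 adjusted p under 0.05 over 16002 genes, of which 11.0% were called higher and 1.84% lower. Against that background 2 of 8 tested members is no result about the members as a set. The median log2 fold change of the 8 tested members was 0.06 and that of all tested genes was -0.01. By edgeR, which called 9.57% of genes higher and 1.02% lower, only CD44 of the members passed.

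**Figure D1:**
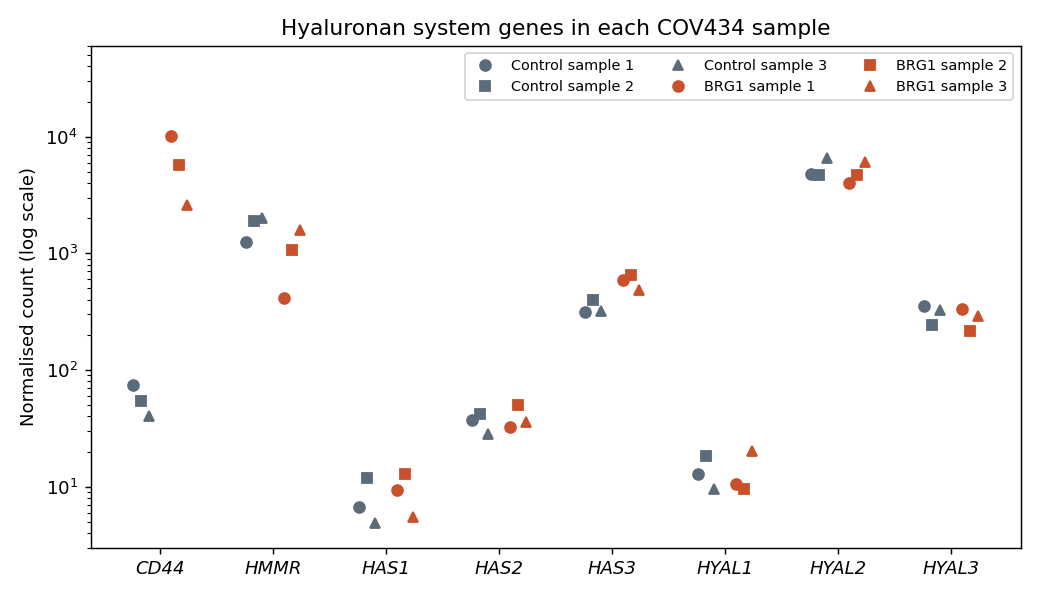
Normalised counts (log scale) of the 8 tested genes in each of the 6 samples, grey for Control and orange for BRG1, with 1 symbol for each replicate number. CD44 lies between 40.0 and 74.2 in Control and between 2608 and 10055 in BRG1 samples, HAS3 is separated by a smaller gap, and the remaining genes overlap between groups.

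The receptors were taken first. CD44 lies on the plus strand of chromosome 11 (GRCh38, chr11:35138882-35232402). It had 74.2, 54.8 and 40.0 normalised counts in Control samples 1 to 3 and 10055, 5767 and 2608 in BRG1 samples 1 to 3. All BRG1 samples were far above all Control samples, and the order within the BRG1 group was that of most genes called higher. The study also reports a rise of CD44 RNA with BRG1 in this line. The means were 56.3 ± 17.2 (SD, n = 3) and 6143 ± 3738 (SD, n = 3). On the log2 scale CD44 rose by 6.77 (SE 0.44, DESeq2 adjusted p 3.0e-50). This corresponds to a 109-fold difference with a 95% confidence interval of 59.8 to 199.7. Within replicate numbers the fold was 136, 105 and 65.2, so the direction held in each pair while the size differed. The edgeR adjusted p was 0.000277. Of the 1764 genes called higher, 177 had a larger log2 fold change than CD44. By its mean level CD44 stood at percentile 40.5 of all genes in Control and at percentile 92.9 in BRG1 samples. The deposited estimated counts behind these values were 60.9, 46.7 and 52.8 in Control, so the base of the fold rests on few reads. Bulk RNA cannot tell more cells with CD44 from more CD44 RNA per cell. The table sums all CD44 transcripts, so the standard and variant isoforms, which carry different exons in the extracellular stem, were not separated.

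The 5 genes whose pattern over the 6 samples lay closest to that of CD44, among 11685 genes with a mean of at least 100 normalised counts, were COL4A1, GBP2, TIMP3, APOL1 and CLIC5. Closeness was measured as the Euclidean distance of centred log2 values, which ran from 0.341 for COL4A1 to 0.443 for CLIC5. COL4A1 encodes a chain of basement membrane collagen and TIMP3 an inhibitor of metalloproteinases that is held in the matrix. GBP2 is an interferon-inducible GTPase. Their log2 fold changes were between 6.41 for TIMP3 and 6.99 for COL4A1. All 6 values of each gene come from the same libraries, so the distances describe these samples only.

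Promoter sequence is shown for the members that differed and for HMMR, because they share a pathway but not a direction. The stretches below are from RefSeq (GRCh38.p14), on the plus strand, and end before the RefSeq start of each gene. The GC box, GGGCGG read on either strand, is in capitals. For CD44 (chr11:35138998-35139027) and HMMR (chr5:163460427-163460456) only 30 bases around the first GC box are given. Their windows, with the bases printed, lie in exons of other transcripts. For HAS3 (chr16:69107290-69107539) all 250 bases are given.
CD44: acgGGGCGGgggcagaggggcCCGCCCggg
HMMR: gtgGGGCGGggaacagtaacggtctcctat
HAS3: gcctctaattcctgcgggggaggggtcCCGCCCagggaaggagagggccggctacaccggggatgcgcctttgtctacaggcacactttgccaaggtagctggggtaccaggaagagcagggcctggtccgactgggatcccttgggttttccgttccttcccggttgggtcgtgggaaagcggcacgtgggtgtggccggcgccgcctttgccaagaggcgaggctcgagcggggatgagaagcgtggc

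RefSeq windows of 300 bases, from 250 before the start to 50 after it, were at hand for 7 of the 10 genes. All 7 apart from HYAL2 held a GC box, as did 45.0% of 35116 promoters. The AP-1 motif was searched because AP-1 is named in the title of the study. In another SCCOHT line, the study reports that blocking AP-1 removed the CD44 protein induced by BRG1. None of the 7 genes held the AP-1 motif as TGANTCA on either strand, while 7.71% of all promoters did. The CRE, TGACGTCA, was present in HAS1 only of the 7 and in 1.85% of promoters. These are matches of letters in short windows and say nothing of distal elements.

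HMMR encodes RHAMM, a hyaluronan receptor that inside the cell associates with the mitotic spindle. It lies on chromosome 5 (chr5:163460203-163491941, plus strand). HMMR had 1249.6, 1899 and 2015 normalised counts in Control samples and 416.5, 1067 and 1587 in BRG1 samples. The groups overlapped, since BRG1 sample 3 was above Control sample 1. Without a block the log2 fold change was -0.75 (SE 0.42, 95% confidence interval -1.58 to 0.08, DESeq2 adjusted p 0.320). With the replicate number as a block, however, it was -0.91 (SE 0.22, adjusted p 0.000429), in a fit that called 6.61% of all tested genes lower. Each BRG1 sample was below the Control sample of its number, at 0.333, 0.562 and 0.788 of it. The edgeR adjusted p was 0.406 without the block and 0.0281 with it, where edgeR called 5.68% of genes lower. Leaving out BRG1 replicate 3 also gave a call, with a DESeq2 adjusted p of 0.0151.

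Because HMMR is a mitotic gene, 15 other mitosis genes were set beside it, among them the kinases AURKA, AURKB, PLK1 and CDK1, the cyclins CCNB1 and CCNB2, and the proliferation marker MKI67. None was called without the block by DESeq2 or by edgeR, and 0 had an unadjusted p under 0.05 in either. With the block 8 of the 15 were called lower by DESeq2 and 4 by edgeR, in fits that called 6.61% and 5.68% of all tested genes lower. The 8 were KIF20A, PRC1, NUSAP1, CCNB2, AURKB, PLK1, MKI67 and CDK1, of which PRC1 and NUSAP1 share 61.9% and 86.8% of their exon length with other genes. The median log2 fold change of the list was -0.40 without the block. The log2 fold change of HMMR was more negative than that of each of the 15, which ran from -0.47 for KIF20A to -0.06 for TOP2A, a difference that was not tested. With HMMR included, 15, 16 and 16 of 16 genes were below their own Control in pairs 1 to 3. Of 14774 tested genes, 7846, 7567 and 7935 were below it, with median ratios of 0.978, 0.991 and 0.983. The median ratio of the 15 genes beside HMMR was 0.658, 0.756 and 0.927 in those pairs. The pair with the lowest HMMR ratio was thus also the pair with the lowest median ratio of the list. Single genes did not all follow this order, and AURKA and TOP2A had their highest ratio in that pair. The share of dividing cells was not measured, and its part in the HMMR values was not tested.

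**Figure D2:**
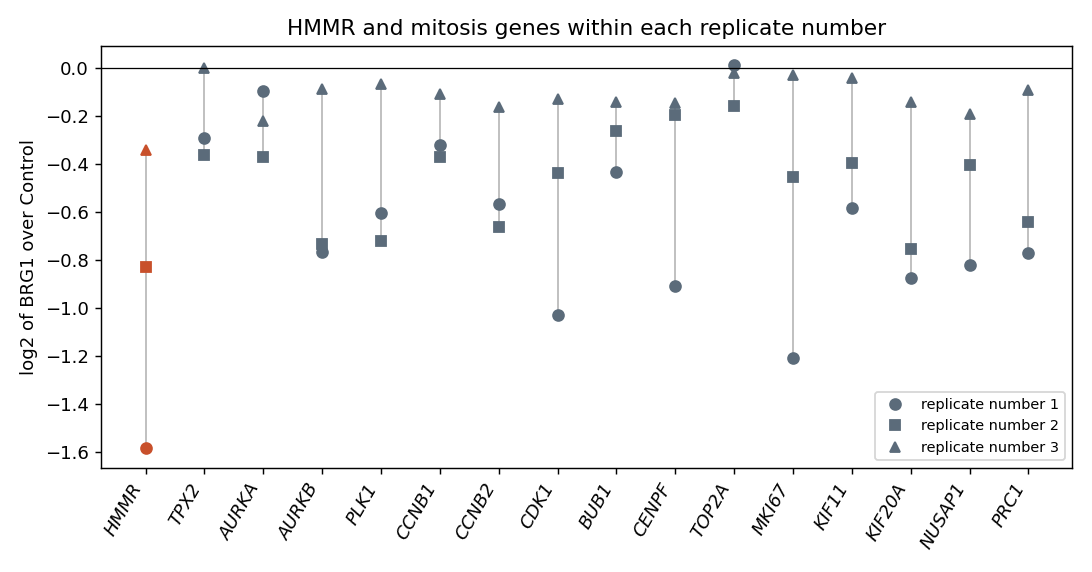
Log2 ratio of each BRG1 sample to the Control sample of the same number for HMMR (orange) and 15 other mitosis genes (grey), 1 symbol a replicate number. HMMR lies at ratios of 0.333, 0.562 and 0.788 in pairs 1 to 3, and nearly all points of the other genes also lie below 0 on the log2 scale.

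LYVE1, a hyaluronan receptor of lymphatic endothelium and some macrophages, was essentially not detected. On chromosome 11 (chr11:10556966-10611689, minus strand), it was at 0 in all Control samples and at 5.77, 1.20 and 0 normalised counts in BRG1 samples. The largest deposited value was 7.96 estimated counts, and DESeq2 left the adjusted p empty. Endothelial markers were set beside it, and 3 of 5 rose by DESeq2, which called 11.0% of all tested genes higher. The same 3 rose by edgeR, which called 9.57% of genes higher. The angiopoietin receptor TEK rose from 412–569 to 839.6–1095 normalised counts. VWF, a clotting glycoprotein of endothelium, rose from 26.1–82.0 to 3224–3656, and the endothelial cadherin CDH5 from 0–1.41 to 43.2–271.9. PECAM1 stayed at 0.543 to 36.8, and PROX1, the transcription factor that defines lymphatic endothelium, at 0 to 3.55. The summed level of the list was 439 to 663 in Control and 4244 to 5032 in BRG1 samples. TEK, VWF and CDH5 were thus higher in BRG1 samples, as CD44 was, and their part in its values was not tested.

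SRGN, a proteoglycan core protein abundant in blood cells, was at 0 in all Control samples and at 1.14, 0 and 1.93 normalised counts in BRG1 samples. It lies on chromosome 10 (chr10:69088103-69104805, plus strand). Both groups were at or under 3 counts in every library, so no fold is given. Of 8 immune cell markers, 3 were tested and none was called by DESeq2 without the block (1 at an unadjusted p under 0.05) or by edgeR. Summed over the list, normalised counts were 1856–2864 in Control and 2411–3922 in BRG1 samples. Most of it came from CD68, a lysosomal protein of macrophages that other cells also make, at 1179 to 2522 and 1929 to 3553. Exons of other annotated genes cover 85.6% of CD68, so its value is uncertain. CD68 was called higher only with the block (DESeq2 adjusted p 0.217 without it and 0.00132 with it). The leukocyte phosphatase PTPRC was at 336 to 722 in the 6 samples. CD3E, ITGAM, FCER1A and MS4A2, which mark T cells, myeloid cells and mast cells, were between 0 and 3.15.

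The synthases differed in level more than in response. Normalised counts were divided by transcript length for this comparison, in counts per kilobase. HAS3 had 82.3 ± 10.6 (SD, n = 3) counts per kilobase in Control and 137 ± 20.0 in BRG1 samples. HAS2 had 8.49 ± 1.71 and 9.29 ± 2.17, and HAS1 had 3.71 ± 1.73 and 4.37 ± 1.73. HAS3 thus held 86.2%, 85.8% and 89.6% of the summed synthase level in Control samples and 92.2%, 89.6% and 91.3% in BRG1 samples. The difference of 3.81 percentage points had an exact permutation p of 0.1 (two-sided), the smallest that 3 samples against 3 allow, so it could not pass the threshold. The summed level was 94.5 ± 13.5 counts per kilobase in Control and 151 ± 23.1 in BRG1 samples, with the same p of 0.1.

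HAS3, which makes shorter hyaluronan chains than the other synthases in many settings, lies on chromosome 16 (chr16:69105653-69118719, plus strand). Its normalised counts were 315.9, 395.8 and 322.6 in Control samples and 596, 647 and 483 in BRG1 samples. The groups did not overlap, a separation with BRG1 higher seen in 16.8% of tested genes. HAS3 rose by 0.74 on the log2 scale (SE 0.20, DESeq2 adjusted p 0.00304), and 1617 of the 1764 genes called higher rose by more. Within replicate numbers the fold was 1.89, 1.63 and 1.50. The call did not hold by edgeR (adjusted p 0.0563), or by DESeq2 without Control replicate 1 (0.0542) or without BRG1 replicate 2 (0.0790). It did hold by limma-voom (0.0453) and, with the replicate block, by DESeq2 (0.000796) and edgeR (0.0108). Exons of CHTF8 and DERPC cover 7.02% of those of HAS3, and since the libraries were not stranded their reads cannot be fully told apart.

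The 5 genes closest to HAS3 in pattern were ANKRD10, PHLDA3, MYH9, MFSD2A and RIPK4, at distances of 0.144 to 0.240. MYH9 encodes a non-muscle myosin heavy chain and RIPK4 a kinase of epidermal differentiation. Their log2 fold changes were between 0.60 for MYH9 and 0.88 for MFSD2A.

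HAS2, the main synthase of the cumulus and of many mesenchymal cells, was low, at 37.6, 42.3 and 28.1 normalised counts in Control and 32.5, 49.9 and 35.8 in BRG1 samples. The groups overlapped, and the log2 fold change was 0.14 (95% confidence interval -0.70 to 0.99, DESeq2 adjusted p 0.930). HAS1, usually the least active of the family, had 6.70, 11.9 and 4.89 in Control and 9.33, 12.8 and 5.51 in BRG1 samples. Its log2 fold change of 0.36 had a 95% confidence interval of -1.32 to 2.03 (DESeq2 adjusted p 0.906). At these counts, changes of 2-fold would not have been detectable for HAS1. HAS1 lies on chromosome 19 (chr19:51713112-51723991) and HAS2 on chromosome 8 (chr8:121612116-121641440), both on the minus strand.

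**Figure D3:**
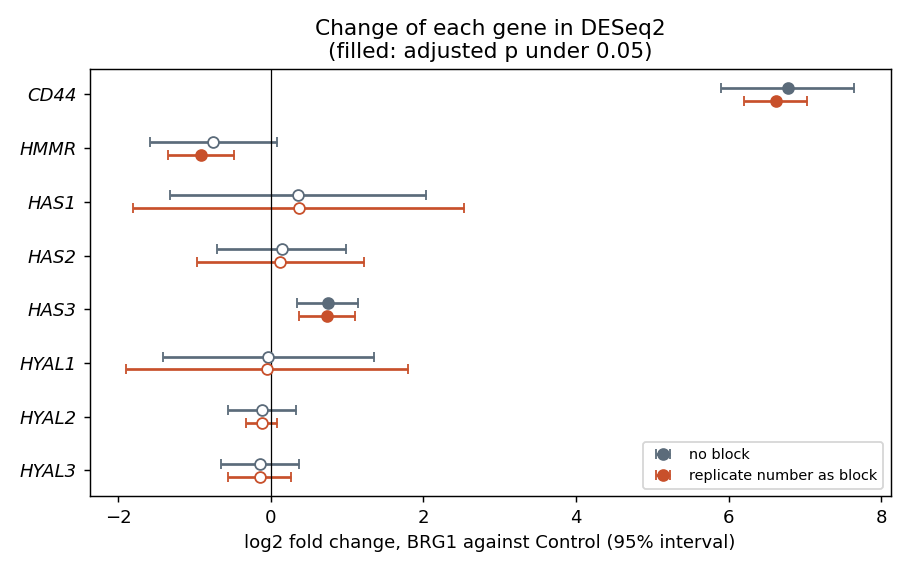
Log2 fold change of BRG1 against Control with 95% confidence intervals for the 8 tested members, from the fit without the replicate block and with it. CD44 and HAS3 lie above 0 in both fits, HMMR lies wholly below 0 only with the block, and the intervals of HAS1 and HYAL1, the genes with the fewest counts, are the widest.

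The 3 hyaluronidases lie side by side on the minus strand of chromosome 3 and none was called. HYAL2 (chr3:50317790-50322782), a surface-anchored enzyme that cleaves long chains, was the most abundant of the 10 genes in both groups per kilobase. It had 4826, 4681 and 6510 normalised counts in Control and 3992, 4666 and 6128 in BRG1 samples, a log2 fold change of -0.12 (95% confidence interval -0.56 to 0.33, DESeq2 adjusted p 0.879). Sample 3 was the highest of its group in both conditions. HYAL1 (chr3:50299890-50312381), the lysosomal enzyme, had 12.9, 18.4 and 9.46 in Control and 10.4, 9.55 and 20.4 in BRG1 samples. Its log2 fold change of -0.03 had a 95% confidence interval of -1.41 to 1.35, which is too wide to bound a 2-fold change. HYAL3 (chr3:50292831-50299405), a family member of uncertain activity, had 354.7, 245.1 and 327.7 in Control and 332.8, 217.9 and 289.7 in BRG1 samples. It was slightly below its Control in each pair, with a log2 fold change of -0.14 (95% confidence interval -0.65 to 0.37, DESeq2 adjusted p 0.865). As a share of the summed HYAL1 to HYAL3 level, HYAL2 made up 94.2% ± 1.15 in Control samples and 94.2% ± 1.84 (SD, n = 3 each) in those with BRG1. Overlapping exons of TUSC2 cover 11.5% of HYAL2, and those of IFRD2 and NAA80 cover 14.0% of HYAL3, so part of their values is uncertain.

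Per kilobase the order of levels in Control ran from HYAL2 (2837 ± 540) over HMMR (571 ± 137), HYAL3 (164.6 ± 30.4) and HAS3 (82.3 ± 10.6) to CD44 (10.4 ± 3.16), HAS2, HYAL1 (6.68 ± 2.22) and HAS1. CD44 and HAS2, and likewise HAS2 and HYAL1, differed by less than the larger SD of the pair. In BRG1 samples CD44, at 1131 ± 688 counts per kilobase, stood second after HYAL2 at 2619 ± 580, and HMMR was at 339 ± 195. HYAL3 and HAS3, at 149 ± 30.9 and 137 ± 20.0, then differed by less than either SD.

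The wider pathway was read from 85 genes in 8 lists, of which 76 were tested. DESeq2 called 13 higher and 1 lower. This compares with 11.0% higher and 1.84% lower of all tested genes, and the median log2 fold change of the 76 was -0.02. By edgeR 8 were higher and 1 lower, against 9.57% and 1.02% of all genes tested by edgeR. With the replicate block DESeq2 called 18 higher and 12 lower, 8 of the latter being the mitosis genes. That fit called 13.4% of all tested genes higher and 6.61% lower. The genes called higher with large changes were receptors, hyaluronan-degrading proteins outside the HYAL family, matrix-binding proteins and the actin linkers of CD44. As with CD44, BRG1 sample 1 was the highest and sample 3 the lowest in 11 of the 13.

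**Figure D4:**
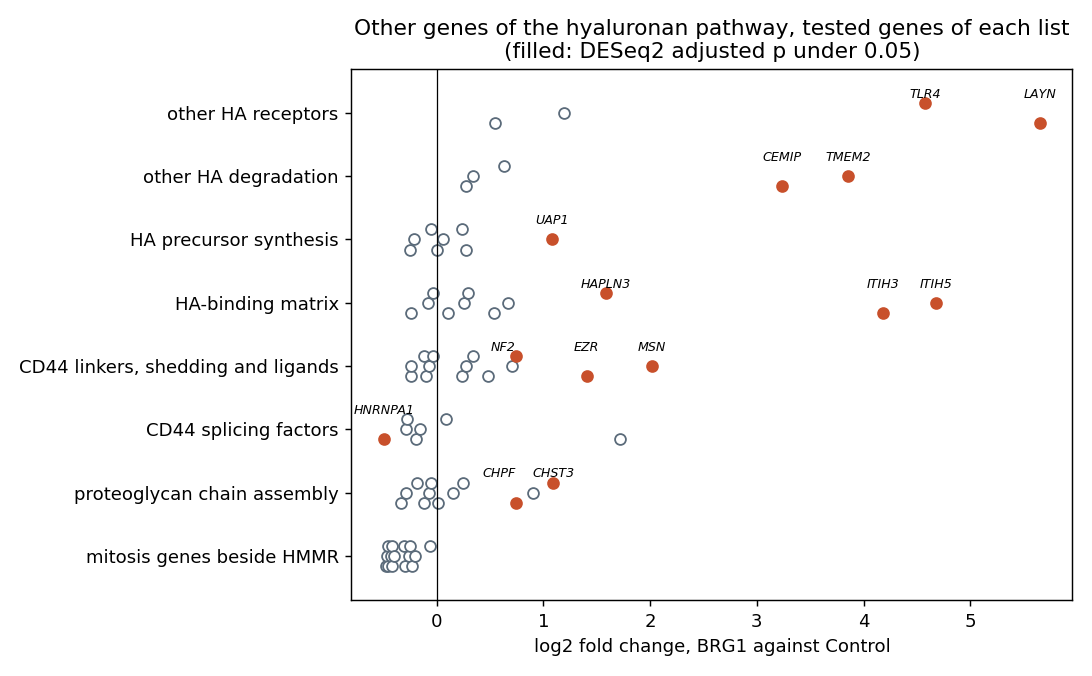
Log2 fold change of BRG1 against Control for the tested genes of the 8 other pathway lists, 1 point a gene, filled where the DESeq2 adjusted p was under 0.05. Changes above 3 are limited to TLR4, LAYN, CEMIP, TMEM2, ITIH3 and ITIH5, and the fitted value of LAYN rests on Control libraries with at most 1 count.

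Other receptors of hyaluronan rose in 2 of the 4 genes tested, out of 5. TLR4, an innate immune receptor that senses hyaluronan fragments, had 11.6, 20.7 and 6.91 normalised counts in Control and 460, 358 and 94.2 in BRG1 samples. Its log2 fold change was 4.58 (DESeq2 adjusted p 4.8e-12, edgeR adjusted p 0.00427). LAYN, the membrane lectin layilin, had 0, 0 and 0.814 in Control and 35.3, 13.1 and 5.89 in BRG1 samples. Against 3 counts per library it was at least 5.76-fold higher (DESeq2 adjusted p 0.00379), and it was too low for the edgeR filter. Without BRG1 replicate 1 the adjusted p of LAYN was 0.179. Of the scavenger receptors, STAB1 was at 0.709 to 19.4 and STAB2 at 0 to 25.4 over the 6 samples, and neither was called.

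Hyaluronan degradation outside the HYAL genes rose in 2 of 5 tested genes, out of 7. TMEM2 (current symbol CEMIP2, chr9:71683366-71816690), a transmembrane protein reported to act as a hyaluronidase, had 392, 385 and 404 normalised counts in Control and 8855, 5502 and 2772 in BRG1 samples. Its enzyme activity was not measured here. Control values were tight and the 3 BRG1 samples were spread in the order seen for CD44. TMEM2 rose by 3.86 on the log2 scale (SE 0.36, DESeq2 adjusted p 2.2e-24, edgeR adjusted p 0.000656), and its fold within pairs was 22.6, 14.3 and 6.86. CEMIP, a secreted hyaluronan-depolymerising protein of the same family, had 7.27, 53.2 and 60.8 in Control and 641, 288 and 212 in BRG1 samples. Its log2 fold change was 3.23 (DESeq2 adjusted p 7.3e-06), but the fold in pair 1 was 88.2 against 5.41 and 3.49 in the other pairs. Without BRG1 replicate 1 the log2 fold change of CEMIP was 2.63 (adjusted p 0.00269).

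On the per-kilobase scale TMEM2 took 2.26%, 2.32% and 1.77% of the summed level of TMEM2, CEMIP and HYAL1 to HYAL3 in Control, and 37.6%, 25.3% and 11.6% in BRG1 samples. The difference between the means of 2.12% ± 0.30 and 24.8% ± 13.0 had an exact permutation p of 0.1 (two-sided), the smallest possible. The sum itself was 3078 ± 553 counts per kilobase in Control and 3754 ± 195 in BRG1 samples, with a p of 0.2. HYAL2 thus remained the largest part of the sum in each sample. This share was chosen after the values were seen.

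**Figure D5:**
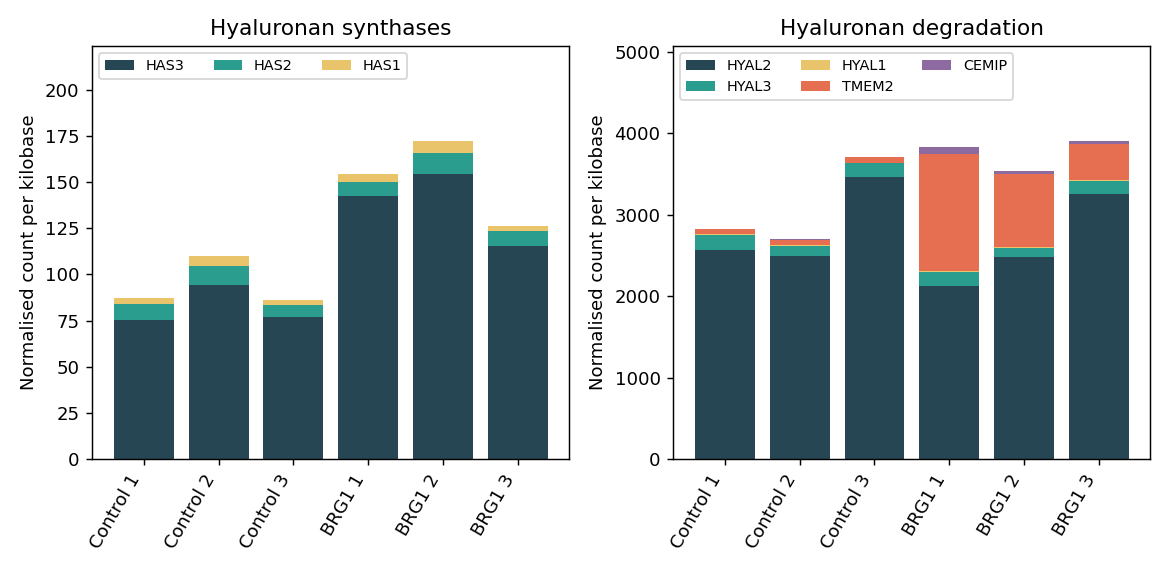
Stacked normalised counts per kilobase of the synthases (left) and of the hyaluronan-degrading genes (right) in each of the 6 samples. HAS3 is the main synthase transcript in all 6 samples, and TMEM2 takes a mean of 2.12% of the degradation sum in Control and 24.8% in BRG1 samples, with HYAL2 the largest part of each bar.

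The linkers, proteases and ligands of CD44 included 14 genes, all tested, of which 3 were called higher. MSN, encoding moesin, had 7410, 7053 and 7230 normalised counts in Control and 41167, 27661 and 18933 in BRG1 samples. MSN rose by 2.02 on the log2 scale (SE 0.27, DESeq2 adjusted p 6.5e-12). EZR, encoding ezrin, had 8643, 8595 and 6117 in Control and 28497, 21961 and 11367 in BRG1 samples, a rise of 1.40 on the log2 scale (DESeq2 adjusted p 0.000217, edgeR adjusted p 0.0256). By contrast RDX, encoding radixin, had 6133 to 6319 in Control and 4885 to 5945 in BRG1 samples. It was below Control in all BRG1 samples, with a log2 fold change of -0.24 that did not pass (95% confidence interval -0.51 to 0.03, DESeq2 adjusted p 0.343). Moesin accordingly made up 31.7% ± 2.64 of the summed per-kilobase level of the 3 linkers in Control and 48.2% ± 2.76 in BRG1 samples (exact permutation p 0.1, two-sided), a share chosen after the values were seen. NF2, or merlin, a related linker that restrains growth, rose by 0.74 on the log2 scale (DESeq2 adjusted p 0.0325), a call not made by edgeR (adjusted p 0.0913). It was also lost when any replicate other than BRG1 replicate 3 was left out, with adjusted p between 0.0786 and 0.167. With the replicate block both tools called NF2 (DESeq2 7.5e-05, edgeR 0.0111). The sheddases ADAM10 and ADAM17, which release the CD44 ectodomain, had log2 fold changes of 0.24 and -0.04 (DESeq2 adjusted p 0.406 and 0.965). Osteopontin, the CD44 ligand encoded by SPP1, had a log2 fold change of 0.48 that was called only with the block (DESeq2 adjusted p 0.113 without it and 0.00541 with it).

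EZR was also 1 of the 2 genes whose promoter windows held the AP-1 motif, out of 12 called pathway genes with a window. The other was CHST3. These 12 genes had 19 windows, and 7.71% of 35116 promoters held the motif, so no enrichment is read from the count. In EZR it lay 56 bases before the start (GRCh38.p14, chr6:158818275-158818301, minus strand). It is shown in capitals because ezrin links CD44 to actin.
EZR: ggcggggcgcTGACTCAcccgggcccg

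Matrix proteins that bind hyaluronan rose in 3 of 11 tested genes, out of 16. The heavy chains of inter-alpha-inhibitor, which are transferred onto hyaluronan and stabilise it, included the genes with the largest changes. ITIH5 had 9.15, 10.1 and 10.6 normalised counts in Control and 350.0, 272 and 169.7 in BRG1 samples, a rise of 4.68 on the log2 scale (DESeq2 adjusted p 1.9e-25). ITIH3 had 18.8, 3.42 and 5.99 in Control and 266, 134 and 94.0 in BRG1 samples, a rise of 4.18 (DESeq2 adjusted p 8.3e-10). HAPLN3, a link protein that joins proteoglycans to hyaluronan, had 43.3, 53.5 and 65.2 in Control and 281, 129 and 79.6 in BRG1 samples (log2 fold change 1.59, DESeq2 adjusted p 0.0124, edgeR adjusted p 0.0874). Its call was lost without Control replicate 1 (0.0981), Control replicate 2 (0.0684) or BRG1 replicate 1 (0.244), and with the replicate block it held by DESeq2 (0.0286) but not by edgeR (0.0660). Without Control replicate 1 the log2 fold change of ITIH3 was 5.06. The proteoglycan versican and the link protein HAPLN1 were higher in level but had log2 fold changes of -0.03 for VCAN and -0.08 for HAPLN1 (DESeq2 adjusted p 0.970 and 0.929).

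Supply of the sugar precursors and assembly of the chains on proteoglycans held few calls. Among 8 precursor genes, UAP1, which makes UDP-N-acetylglucosamine, was called higher by DESeq2 (log2 fold change 1.08, adjusted p 0.0487) but not by edgeR (0.171), nor without any replicate other than BRG1 replicate 3 (0.0662 to 0.343). With the replicate block UAP1 was called by both tools (DESeq2 5.9e-06, edgeR 0.010). Its groups overlapped, with 2958, 3397 and 2018 normalised counts in Control and 7426, 7742 and 2522 in BRG1 samples. UGDH, which makes UDP-glucuronic acid, had a log2 fold change of -0.06 (95% confidence interval -0.45 to 0.33, DESeq2 adjusted p 0.938). Of 12 genes of chain assembly, CHPF, a chondroitin polymerising factor, rose by 0.74 (DESeq2 adjusted p 0.00885, edgeR adjusted p 0.0442) and CHST3, a chondroitin sulphotransferase, by 1.09 (DESeq2 adjusted p 0.00414, edgeR adjusted p 0.0538) on the log2 scale. The CHPF call was lost without Control replicate 2 (adjusted p 0.101), BRG1 replicate 1 (0.0637) or BRG1 replicate 2 (0.0589), and the CHST3 call without Control replicate 3 (0.0555) or BRG1 replicate 2 (0.0805). With the replicate block both genes were called by DESeq2 (5.7e-05 and 5.5e-10) and by edgeR (0.0126 and 0.00155). B3GAT3 and B3GALT6, which build the linker sugar of proteoglycans, were called lower only with the block, at log2 fold changes of -0.29 and -0.34 (DESeq2 adjusted p 0.0135 and 0.0266).

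Of 8 factors known to affect CD44 splicing, 7 were tested, and HNRNPA1 alone was called. This hnRNP protein had 92331, 91266 and 94479 normalised counts in Control and 60409.8, 62145 and 74878 in BRG1 samples. All BRG1 values were below all Control values, a separation seen with BRG1 lower in 9.86% of tested genes. HNRNPA1 fell by 0.49 on the log2 scale (DESeq2 adjusted p 0.00439, edgeR adjusted p 0.0271), a call lost in DESeq2 without Control replicate 1 (0.0542) or BRG1 replicate 2 (0.0716), and made by both tools with the replicate block (3.4e-06 and 0.0107). SRSF1 was called lower only by DESeq2 with the block (log2 fold change -0.31, adjusted p 0.0326). It was not called by edgeR with the block, and 35.1% of its exon length is shared with other genes. ESRP1, the epithelial regulator of CD44 variant exons, was at 0 to 1.56 normalised counts in the 6 samples.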

How the data were processed

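COV434 cells with a Control or BRG1 plasmid (n = 3 each) were profiled by unstranded poly(A) RNA-seq (78-base read pairs). Per the labels and methods, the authors aligned reads with STAR (2.5.3a) to hg38, quantified transcripts with salmon (0.8.2) on GENCODE release 24 and summed them with tximport. Deposited are estimated counts for each gene, obtained from TPM by scaling to transcript length and library size, and not divided by depth. Salmon shares reads between overlapping or near-identical genes by model, so such genes are uncertain.

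After rounding these values to integers, BRG1 was compared with Control by the DESeq2 (1.42.0) Wald test in R 4.3.3, the tool of the study, with median-ratio size factors, no covariate and Benjamini-Hochberg adjustment over 16002 genes (threshold 0.05). Alternatives were edgeR's quasi-likelihood test (4.0.16) and limma-voom (3.58.1) with TMM factors, TMM factors in DESeq2, a minimum of 10 counts in 3 samples, no independent filtering, a threshold of 0.01, the replicate number as a block, and each replicate left out. Apart from the threshold of 0.01 and left-out replicates, these fits were tested on simulated data with 200 or 2000 changed genes. At 200 changed genes, 22.4% of DESeq2 calls were false, rising to 29.0% once the block was added. The edgeR shares of 5.35% and 5.52% and the limma-voom share of 6.91% were then also above the threshold. At 2000 changed genes DESeq2 made 6.45% and 6.54% false calls, edgeR 3.40% and 3.35%, and limma-voom 3.68%. DESeq2 thus exceeded its threshold and edgeR in both simulations, so edgeR values are given beside calls that differ. DESeq2 calls and counts here may hold more false calls than the threshold implies, but their share in these samples was not measured. Same-numbered samples deviated together (r of 0.526, 0.549 and 0.608 over 14225 genes, against -0.546 to 0.0965 for other numbers). The numbers were therefore taken to pair the samples, an inference from these values. The labels call the samples biological replicates.

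Levels between genes are normalised counts per kilobase of the Ensembl canonical transcript (GENCODE release 44, GRCh38, also used for positions). Groups whose samples all held 3 counts or fewer were at the floor, and folds against them used 3 counts per library. Totals of 29699741 to 63613710 set the counting error.

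The members and lists were chosen with earlier results of these data known. All members were named, with up to 4 called genes per list by adjusted p, some uncalled genes, and the 5 nearest genes of each called member by distance of log2(normalised count + 1). Columns of all 6 samples were used. Single values of some list genes are not reported here.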

Additional observations from a re-analysis of the deposited data

How the results depend on the processing

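CD44 kept its direction and call in all 13 alternatives run for it, with a log2 fold change of 6.23 to 7.15 when 1 replicate was left out. The number of members called higher, 2, was 1 by edgeR and 1 to 2 with a replicate left out, being 1 without Control replicate 1 and without BRG1 replicate 2. The number called lower, 0, became 1 (HMMR) with the replicate block in DESeq2 and 1 in edgeR with the block, and was 0 to 1 with a replicate left out, being 1 without BRG1 replicate 3. Pathway genes called higher, 13, were 8 by edgeR, 8 by limma-voom and 8 to 15 with a replicate left out, lowest without BRG1 replicate 1. Pathway genes called lower, 1, were 12 with the replicate block, 7 in edgeR with the block and 0 to 4 with a replicate left out, being 0 without Control replicate 1 or BRG1 replicate 2 and 4 without BRG1 replicate 3. The block fits called 6.61% (DESeq2) and 5.68% (edgeR) of all tested genes lower. All genes called lower, 294, were 146 by edgeR, 169 by limma-voom, 1035 with the block, 809 in edgeR with the block, 130 at the threshold of 0.01 and 116 to 596 with a replicate left out. The causes of these changes were not tested. The log2 fold changes of 4 uncalled genes changed sign with a replicate left out, in ranges of -0.068 to 0.27 for HAS2, -0.44 to 0.26 for HYAL1, -0.30 to 0.050 for HYAL2 and -0.29 to 0.013 for HYAL3. The difference in the HAS3 share kept its direction in 8 alternatives, which were chosen after seeing the data. It was 3.11 to 5.00 percentage points with a replicate left out and 4.43 with the length of all exons. Within pairs the exact permutation p was 0.25, the smallest that so few pairs allow. Depth limits HAS1, HYAL1, LYVE1 and SRGN, whose values are few counts per library.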
